A study of Mus musculus with 60 samples.

Results

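Gene expression was compared between Kupffer cell preparations of 5 Trem1-deficient and 5 wild-type C57BL/6J mice, all given CCl4 (carbon tetrachloride), which hepatocytes turn into a toxic radical. These 10 libraries, chosen by genotype and treatment in the labels, are part of 15 in the series, whose other 5 came from wild-type mice given corn oil. The labels describe every mouse as an 8-week-old male. A single dose of 2 µl per g body weight, mixed 1:4 into corn oil, was given 12 h before the liver was taken. No Trem1-deficient mice given oil are among the samples, so a difference between genotypes after CCl4 cannot be told apart from one that was there before it. The labels give no allele or tissue restriction for the deficiency. Cells were released with collagenase, freed of hepatocytes by a slow spin, and passed over a density gradient. CD11b beads were used to deplete cells before F4/80 beads picked out the macrophages. RNA was read as 3' tags, so a count stands for 1 read near the end of a transcript whatever the length of the gene.

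Kupffer cells are the resident macrophages of the liver sinusoids. They clear particles, ageing red cells and complement-coated microbes from portal blood, and they are recognised by Clec4f, Vsig4, Cd5l and C1q. After acute injury, resident cells can be lost while monocytes and neutrophils enter from the blood. Trem1 encodes a receptor of monocytes, neutrophils and some macrophages that signals through the adaptor DAP12, encoded by Tyrobp, and amplifies inflammatory responses.

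Gene counts came to 1250547 to 2593004 per library in Trem1-deficient mice, 812320 to 1912946 in wild-type mice given CCl4 and 892498 to 1922569 in wild-type mice given oil. The sample unit is the mouse, numbered 1 to 5 within a group. Levels are CPM (counts per 1000000 counts), scaled between libraries by the trimmed mean of M-values (TMM). A count of 0 is compatible with up to 3 counts, which equal 1.16 to 2.40 CPM in Trem1-deficient and 1.57 to 3.69 CPM in wild-type CCl4 libraries, for counting error only. Libraries differed in ways the genotype labels do not give. Index numbers in the column names rise in steps of 12, from 15 to 63 in oil mice and on to 75 and 87 in Trem1-deficient mice 1 and 2. They start again at 4, 16 and 28 in Trem1-deficient mice 3 to 5 and run from 40 to 88 in wild-type CCl4 mice. These 2 runs are called index series here, a grouping that no label gives. Trem1-deficient mice 1 and 2 thus share the series of the oil mice, and mice 3 to 5 that of the wild-type CCl4 mice. Xist, the transcript of the inactive X chromosome, had 1552 and 1400 counts in Trem1-deficient mice 1 and 2, against at most 31 in Trem1-deficient mice 3 to 5 and 2 to 17 in wild-type CCl4 mice. Y-linked genes had 7 and 0 counts in Trem1-deficient mice 1 and 2, against 134 to 425 in mice 3 to 5 and 135 to 358 in wild-type CCl4 mice. Oil mice had Xist at 90.1 to 361 CPM and 0 Y-linked counts. The libraries of Trem1-deficient mice 1 and 2 and of all oil mice thus go against the male label, and levels set beside oil below compare libraries that differ in this too. Wild-type CCl4 mouse 1 resembled the Trem1-deficient libraries more than its own group, with a median Spearman correlation over genes of 0.775 against 0.671. In that library 14.3% of counts fell on Malat1, against at most 1.68% in the libraries of the other 2 groups. Rn45s, the ribosomal RNA precursor, took 2.85 to 12.5% of counts in Trem1-deficient and 10.8 to 16.8% in wild-type CCl4 libraries.

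Trem1 (ENSMUSG00000042265.13, GRCm38 chromosome 17, 48232768 to 48246924) was low in each Trem1-deficient library. Its level was 1.67, 2.03, 10.9, 5.71 and 1.17 CPM in Trem1-deficient mice 1 to 5 and 111, 575, 406, 331 and 317 CPM in wild-type CCl4 mice 1 to 5. The groups did not overlap, and the lowest wild-type value was that of mouse 1. The means were 4.29 ± 4.09 and 348 ± 167 CPM (SD, n = 5 each). The log2 fold change was -6.33 ± 0.65 (SE), with an adjusted p of 7.62e-07 in the quasi-likelihood test of edgeR. On the log2(CPM + 1) scale the difference was -6.18, and the exact permutation test, two-sided, gave p = 0.00794, the smallest value available from 252 splits of the 10 mice. The labels do not say which stretch of the gene the mutation removes, so low 3' tags check the labels only if that stretch includes the 3' end.

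Of 9001 genes tested, 185 differed between the genotypes at an adjusted p under 0.05 (2.06%). Of the 185, 70 were higher in Trem1-deficient mice (0.778% of genes tested) and 115 were lower (1.28%). These shares are the background for the counts of list members below. Genes higher without Trem1 were mostly abundant macrophage transcripts, led by Cfp, C1qb, Vsig4, Clec4f, Cd5l and Cd163 by p-value. Genes lower without Trem1 included Trem1, the interleukin-1 decoy receptor gene Il1r2, Fam134b, the fatty acid desaturase gene Scd1 and S100a6. In 62 of the 70 higher and 83 of the 115 lower genes the 5 mice of 1 genotype lay wholly on 1 side of the 5 of the other. Over all genes tested, 308 had every Trem1-deficient mouse above every wild-type mouse (3.42%), 191 had the reverse (2.12%) and 499 had either (5.54%). The median log2 fold change of all genes tested was -0.03.

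**Figure D1:**
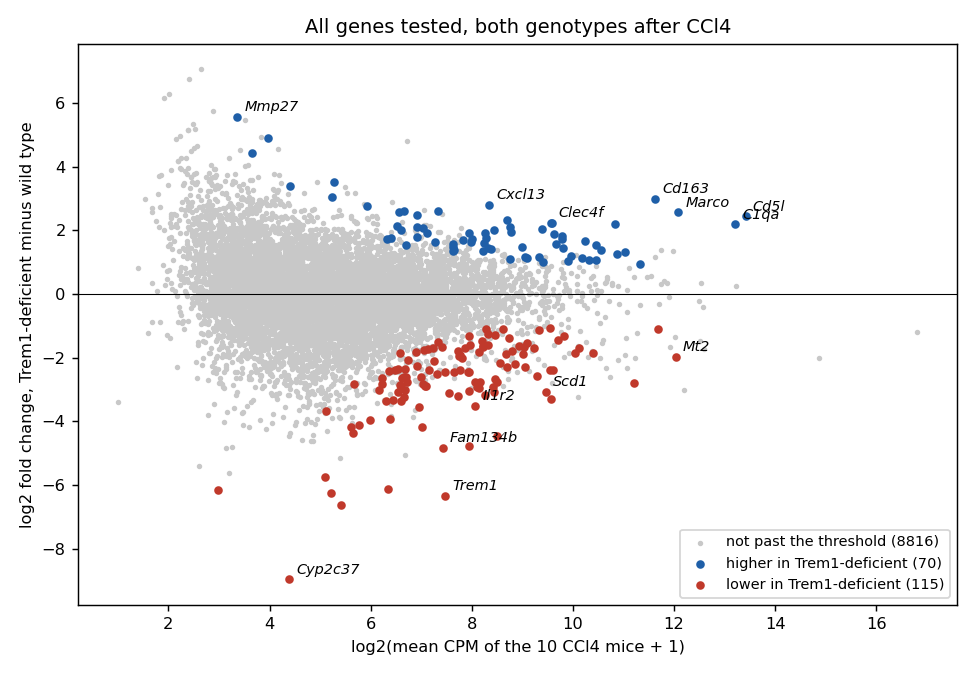
Log2 fold change of Trem1-deficient over wild-type mice, both after CCl4 (vertical axis), against the log2 of the mean CPM + 1 over the 10 mice (horizontal axis) for 9001 genes. The 70 genes past the threshold above 0 are blue and reach the most abundant macrophage genes such as Cd5l and C1qa, and the 115 below 0 are red, with Cyp2c37 lowest.

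The number of calls depended on single mice. Leaving out 1 mouse changed the count from 185 to 114, 87, 98 and 112 without Trem1-deficient mouse 1, 2, 3 and 4, to 118 and 119 without wild-type mouse 3 and 4, and to 508 without wild-type mouse 1. All 185 genes kept their direction in each of the 10 fits that left out 1 mouse, apart from 1 gene that was too low to be tested in 1 of them. In all 10 fits 71 genes were called, 29 higher and 42 lower. Below, for called genes, the number of these 10 fits that called the gene is given wherever it is under 10. With scaling by library totals alone the split was 211 higher and 95 lower, with upper-quartile factors 86 and 72, and the median of all genes shifted by 0.28 and 0.16 on the log2 scale. Fold changes here are relative to TMM scaling.

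Genes of resident Kupffer cells were higher in Trem1-deficient mice in most cases. All 20 genes of this list were tested; 14 were higher in Trem1-deficient mice, 0 were lower, and the median log2 fold change was 2.07, against -0.03 over all genes. The count was 10 to 16 when 1 mouse was left out and 14 to 17 under other scalings. Clec4f, a lectin made by Kupffer cells in the mouse, had 894, 1331, 1618, 1164 and 1287 CPM in Trem1-deficient mice 1 to 5 and 574, 196, 193, 122 and 255 CPM in wild-type mice 1 to 5. The groups did not overlap, and mouse 1 was the highest wild-type library. Its log2 fold change was 2.23 ± 0.33 (edgeR adjusted p = 0.000193), and oil-treated wild-type mice had 2261 ± 644 CPM (SD, n = 5).

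Cd5l, which encodes a secreted protein of tissue macrophages, was among the most abundant transcripts. Its level was 15639, 20054, 15476, 20551 and 20399 CPM in Trem1-deficient mice and 7763, 2465, 3187, 1923 and 1584 CPM in wild-type mice (log2 fold change 2.44 ± 0.34, adjusted p = 0.000473). The Trem1-deficient mean of 18424 CPM was near that of oil-treated mice, 19169 ± 5058 CPM. Csf1r, the receptor that macrophages need to survive, averaged 2089 ± 373 against 723 ± 361 CPM (log2 fold change 1.53 ± 0.30, adjusted p = 0.00361), with 3665 CPM in oil-treated mice. Slc40a1, the iron exporter ferroportin, averaged 483 ± 107 against 129 ± 64.8 CPM (1.91 ± 0.35, adjusted p = 0.00156). Nr1h3, which encodes the oxysterol receptor LXR alpha, had a log2 fold change of 1.95 ± 0.50 (adjusted p = 0.0451, called in 2 of the 10 fits).

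The remaining genes of the list did not pass the test. Timd4, a receptor for dying cells on embryonically derived Kupffer cells, had 339, 431, 182, 229 and 250 CPM in Trem1-deficient and 118, 66.4, 62.0, 0 and 1.38 CPM in wild-type mice. Its groups did not overlap, but its spread was wide (log2 fold change 2.52 ± 0.92, adjusted p = 0.203). Adgre1, which encodes the sorting antigen F4/80, had 129 to 318 CPM and 4.15 to 180 CPM (1.46 ± 0.53, adjusted p = 0.171). Spic, Id3 and Slc16a9 also had positive log2 fold changes, the smallest being 0.87 for Id3.

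**Figure D2:**
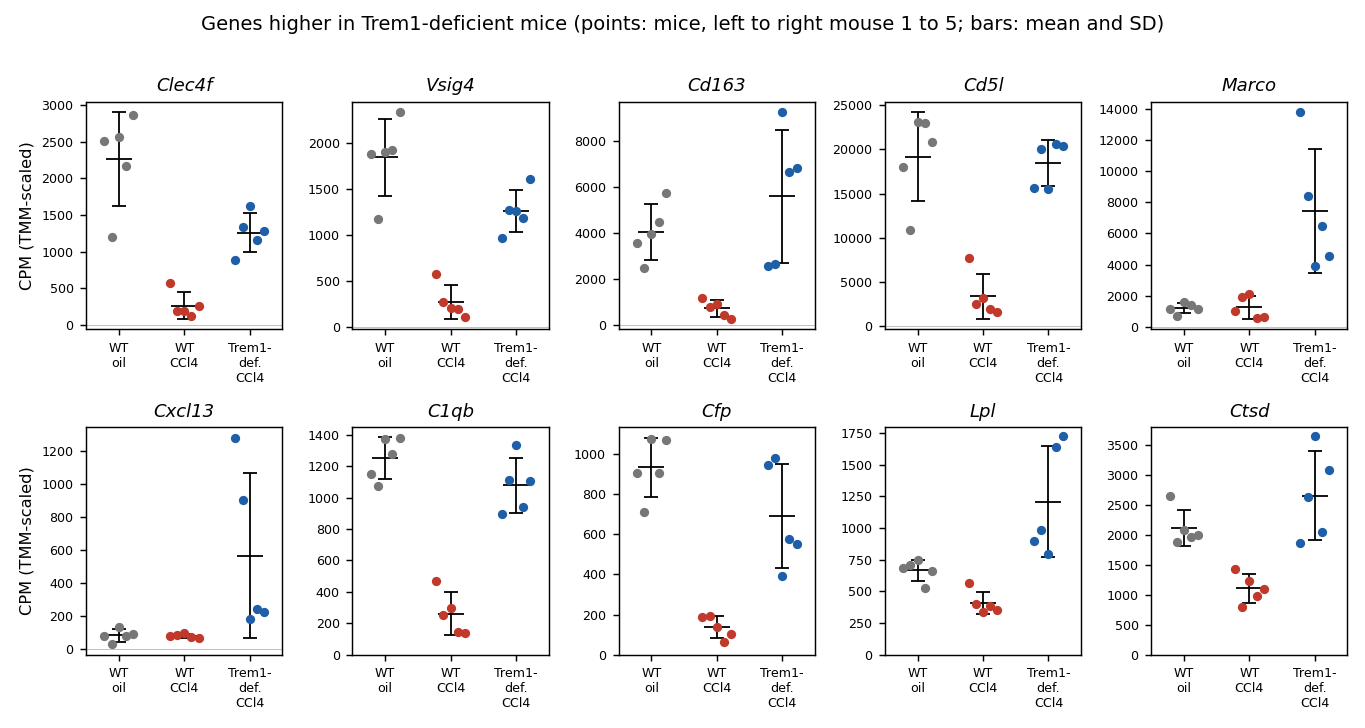
TMM-scaled CPM (vertical axes) of 10 genes higher in Trem1-deficient mice, by group (5 mice each); each point is a mouse, with mice 1 to 5 from the left, and bars give the mean and SD. In each panel all Trem1-deficient mice lie above all wild-type CCl4 mice, and for Marco, Cxcl13 and Lpl also above all oil-treated mice (for Marco 3931 CPM or more against 1586 CPM or less).

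The summed level of the Kupffer list was 54386 to 67201 CPM in Trem1-deficient, 7012 to 26044 CPM in wild-type CCl4 and 40384 to 78917 CPM in oil-treated mice. Hepatocyte, monocyte and neutrophil markers averaged lower in Trem1-deficient mice, with overlap for hepatocytes and neutrophils. The hepatocyte list (21 of its 22 genes detected in the CCl4 mice, Ass1 at 0) summed to 1707 to 19861 CPM in Trem1-deficient and 14699 to 44075 CPM in wild-type CCl4 mice. The monocyte list (16 of 16 detected) summed to 1398 to 2764 and 3605 to 7514 CPM, and the neutrophil list (13 of 14 detected, Elane at 0) to 398 to 3309 and 1342 to 12428 CPM. In bulk RNA, fewer cells of a type and less RNA per cell cannot be told apart. How far the composition of the preparations accounts for the differences between genotypes was not tested.

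**Figure D3:**
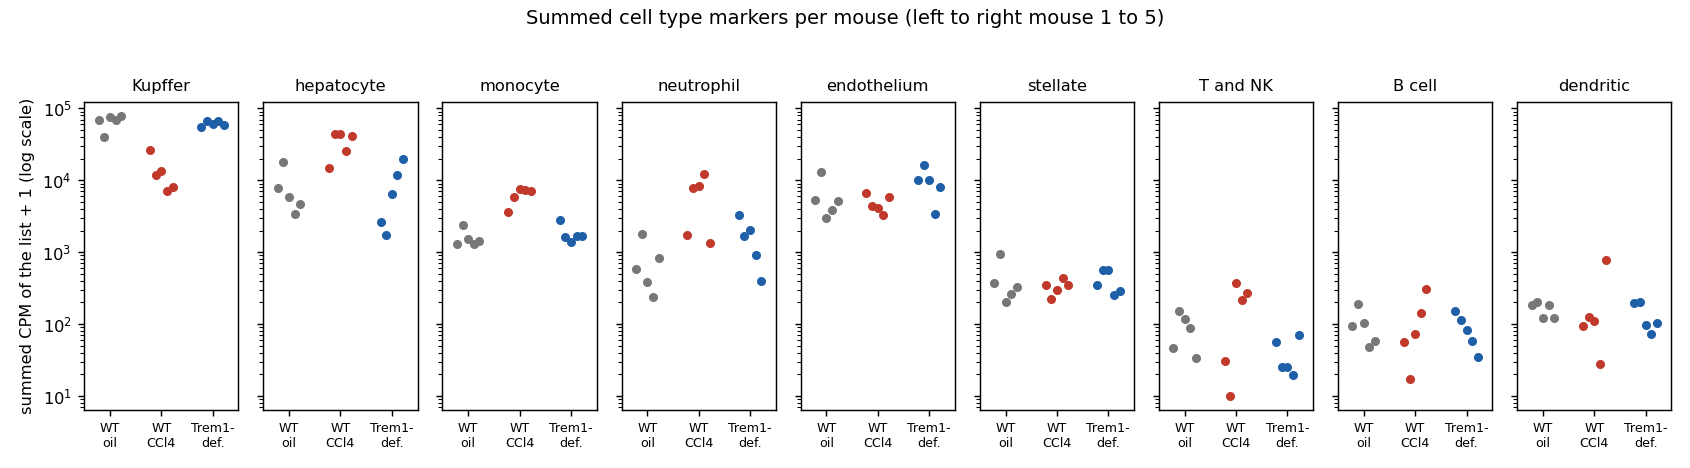
Summed CPM + 1 of 9 cell type marker lists (vertical axis, log scale) in the 5 mice of each group, ordered 1 to 5 from the left. Kupffer sums of Trem1-deficient mice start at 54386 CPM and those of wild-type CCl4 mice end at 26044 CPM, whereas every wild-type CCl4 mouse has a higher monocyte sum (3605 CPM or more) than every Trem1-deficient mouse (2764 CPM or less).

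Of 16 complement genes tested, 5 were higher without Trem1 and 0 were lower in edgeR, with a list median of 0.76. DESeq2 called 5 higher and 2 lower, and limma-voom 6 and 2. All 3 chains of C1q, the recognition unit of the classical pathway that also tags dying cells, were among the 5. Of the 5, C1qa, C1qb, C1qc and Vsig4 are also in the Kupffer list counted above, and only Cfp is not. C1qb had 897, 1114, 1332, 938 and 1105 CPM in Trem1-deficient and 471, 251, 295, 147 and 140 CPM in wild-type mice (log2 fold change 2.05 ± 0.29, adjusted p = 0.000158). C1qc had 966 to 1748 and 230 to 664 CPM (1.73 ± 0.29, adjusted p = 0.000833). C1qa, named here as the remaining chain after its values were seen, had 10550 to 20323 and 1277 to 8201 CPM (2.20, adjusted p = 0.0135, called in 7 of the 10 fits).

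Vsig4 encodes a macrophage receptor that binds fragments of complement C3. It had 968, 1263, 1255, 1175 and 1602 CPM in Trem1-deficient and 572, 268, 203, 191 and 102 CPM in wild-type mice, without overlap (2.23 ± 0.33, adjusted p = 0.000193). Cfp encodes properdin, which stabilises the alternative pathway. It had 944, 980, 393, 575 and 553 CPM against 189, 195, 137, 63 and 102 CPM (2.32 ± 0.33, adjusted p = 0.000108), and it was higher in Trem1-deficient mice 1 and 2 than in 3 to 5. C3 and Serping1 of the list did not pass the test, with log2 fold changes of -1.37 and -2.51. Outside this list, the complement-related genes Cfi, Mbl2 and Clu were lower without Trem1. They were called in 2, 4 and 4 of the 10 fits.

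The start regions of 3 of these genes are shown because C1qb and C1qc are neighbours on chromosome 4 that moved together with Vsig4 on the X chromosome. Each run is the 250 bases before the RefSeq start (GRCm38.p6, minus strand of the chromosome in all 3), 5′ to 3′. Capitals mark GAGGAA on either strand, letters found in binding sites of PU.1, an ETS factor that myeloid cells depend on. C1qb lies at chr4:136886201-136886450, C1qc at chr4:136892915-136893164 and Vsig4 at chrX:96293439-96293688.
C1qb: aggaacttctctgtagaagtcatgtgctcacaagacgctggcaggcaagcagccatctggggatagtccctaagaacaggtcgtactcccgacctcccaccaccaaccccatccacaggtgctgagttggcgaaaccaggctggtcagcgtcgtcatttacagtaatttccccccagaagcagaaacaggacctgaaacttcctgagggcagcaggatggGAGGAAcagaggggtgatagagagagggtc
C1qc: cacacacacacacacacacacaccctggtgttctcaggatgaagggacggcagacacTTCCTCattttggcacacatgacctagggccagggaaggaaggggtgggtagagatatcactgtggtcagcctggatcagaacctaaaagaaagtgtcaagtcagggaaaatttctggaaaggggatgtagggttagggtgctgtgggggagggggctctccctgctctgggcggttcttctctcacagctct
Vsig4: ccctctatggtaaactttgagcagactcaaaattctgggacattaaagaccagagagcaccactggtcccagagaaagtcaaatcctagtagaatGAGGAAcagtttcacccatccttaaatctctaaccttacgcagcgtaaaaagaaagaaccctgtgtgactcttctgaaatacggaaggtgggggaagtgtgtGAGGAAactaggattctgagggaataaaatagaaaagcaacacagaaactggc
The letters occurred once in C1qb and C1qc and at 2 places in Vsig4. They were in the same window of 23.1% of 27025 promoters, 23.1% of those of tested genes, 25.0% of 56 matched genes that were higher and 25.6% of 82 that were lower. The shares were thus close to the background, and a match is no evidence of binding.

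Scavenger receptors take up modified lipoproteins, haemoglobin complexes and dying cells. Of 18 tested, 4 were higher (Marco, Cd163, Axl and Lrp1), 0 were lower and the list median was 0.94 (DESeq2 called 5 higher and 1 lower, limma-voom 6 and 0). Marco and Cd163 are also in the Kupffer list, whereas Axl and Lrp1 are not. Cd163, the receptor for haptoglobin and haemoglobin, had 2565, 2653, 9253, 6646 and 6791 CPM in Trem1-deficient and 1175, 778, 889, 407 and 261 CPM in wild-type mice. The groups did not overlap, and Trem1-deficient mice 3 to 5 were above mice 1 and 2. Its log2 fold change was 2.99 ± 0.42 (adjusted p = 0.000615), and oil-treated mice had 2453 to 5726 CPM. Axl, a kinase receptor for phosphatidylserine bridging proteins, had 314 to 562 and 97.3 to 198 CPM (1.60 ± 0.28, adjusted p = 0.00131). Lrp1, a large endocytic receptor, had 1127 to 2021 and 455 to 870 CPM (1.12 ± 0.26, adjusted p = 0.0171, called in 8 of the 10 fits).

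Marco and Cxcl13 were above the oil-treated level in every Trem1-deficient mouse. Marco, a scavenger receptor for bacteria and particles, had 13789, 8409, 3931, 6444 and 4538 CPM in Trem1-deficient and 1036, 1937, 2101, 591 and 618 CPM in wild-type CCl4 mice (2.56 ± 0.39, adjusted p = 0.000951). Cxcl13, a chemokine that draws B cells, had 1282, 906, 183, 246 and 223 CPM against 77.8, 88.6, 97.3, 73.8 and 69.2 CPM (2.80 ± 0.48, adjusted p = 0.00116). Oil-treated mice had 690 to 1586 CPM of Marco and 30.0 to 137 CPM of Cxcl13, below every Trem1-deficient mouse. Cxcl13 was highest in Trem1-deficient mice 1 and 2, the 2 of the other index series. Without them its log2 fold change was 1.42 and did not pass the test (adjusted p = 0.337), whereas that of Marco was 1.98 (adjusted p = 0.0111).

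Of 38 lysosomal genes tested, 7 were higher (Ctsa, Ctsb, Ctsd, Lamp1, Hexa, Lipa and Acp5), 0 were lower and the list median was 0.60. DESeq2 called 9 higher and 1 lower, and limma-voom 13 and 2. Ctsa and Acp5 were called in 4 of the 10 fits each and Ctsb in 7. The count was 2 to 10 when 1 mouse was left out, with 2 without Trem1-deficient mouse 5, and 5 to 13 under other scalings. Ctsd, the protease cathepsin D, had 1866, 2631, 3653, 2046 and 3087 CPM in Trem1-deficient and 1435, 795, 1236, 977 and 1101 CPM in wild-type mice (1.26 ± 0.24, adjusted p = 0.0026). Hexa, a subunit of the ganglioside-degrading hexosaminidase, had 371 to 610 and 119 to 237 CPM (1.44 ± 0.28, adjusted p = 0.00378). Lamp1, a membrane glycoprotein of the lysosome, had 1151 to 1527 and 289 to 751 CPM (1.04 ± 0.25, adjusted p = 0.0247, called in 8 of the 10 fits). Within 1 index series Ctsd was the 1 lysosomal gene that passed (edgeR adjusted p = 0.0498), with a list median of 0.70.

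Among single genes of lipid handling and redox balance, Lpl, the lipoprotein lipase that frees fatty acids from triglyceride particles, had 899, 982, 793, 1636 and 1723 CPM in Trem1-deficient and 562, 398, 336, 385 and 354 CPM in wild-type mice. It was above the oil-treated level of 529 to 744 CPM in every Trem1-deficient mouse (1.57 ± 0.27, adjusted p = 0.00116). Lipa, the lysosomal acid lipase, had a log2 fold change of 1.33 ± 0.35 (adjusted p = 0.0429, called in 4 of the 10 fits). Hpgd, which inactivates prostaglandins, averaged 218 ± 85.1 against 57.9 ± 26.1 CPM (1.90 ± 0.35, adjusted p = 0.00223), below the 567 ± 132 CPM of oil-treated mice. Gpx1, the cytosolic glutathione peroxidase, averaged 2169 ± 454 against 836 ± 197 CPM (1.37 ± 0.24, adjusted p = 0.00131).

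Genes outside the marker lists were higher too. Adrb1, the beta-1 adrenergic receptor, had 128, 301, 275, 302 and 362 CPM in Trem1-deficient and 108, 24.2, 45.8, 31.5 and 13.8 CPM in wild-type mice (2.60 ± 0.49, adjusted p = 0.0026). The highest wild-type library, mouse 1, came near the lowest Trem1-deficient one. Plekhm1, an adaptor of lysosome fusion, had 85.5 to 120 and 0.954 to 43.9 CPM (2.77 ± 0.71, adjusted p = 0.0318, called in 3 of the 10 fits). Pla2g15, a lysosomal phospholipase, had 114 to 216 and 1.38 to 93.1 CPM (2.61 ± 0.67, adjusted p = 0.0383, called in 3).

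Scarce transcripts had large fold changes. Etv5, an ETS transcription factor gene, had 13.9 to 35.1 CPM in Trem1-deficient mice and 0 in wild-type mice 2 to 4, with 3.32 and 1.38 CPM in mice 1 and 5 (4.41 ± 1.15, adjusted p = 0.0383, called in 2 of the 10 fits). Naip1, a sensor of bacterial secretion needles, had 12.2 to 49.5 CPM, and only wild-type mouse 1 of its group had counts, at 3.99 CPM (4.89 ± 1.31, adjusted p = 0.0446, called in 2). Mmp27, a metalloproteinase gene, had 193 counts in the Trem1-deficient group and 2 in the wild-type group, a ratio of 51.9 after scaling with a 95% counting interval of 14.2 to 432 (adjusted p = 0.0469, called in 1). Gbp2b, an interferon-induced GTPase gene, had 29.1 to 49.0 and 0 to 9.97 CPM (3.40 ± 0.80, adjusted p = 0.019, not called without wild-type mouse 3). Batf3, a transcription factor of cross-presenting dendritic cells, had 20.4 to 138 and 0 to 15.3 CPM (3.04 ± 0.82, adjusted p = 0.0451, called in 3). Il18, a cytokine released by inflammasomes, had 108 to 251 and 5.72 to 63.4 CPM (2.13 ± 0.56, adjusted p = 0.0418, called in 3).

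Of 16 monocyte and recruited macrophage genes, 5 were lower (Vcan, S100a4, S100a6, Fn1 and Clec4e), 0 were higher and the list median was -1.80. Vcan was called in 6 of the 10 fits, and DESeq2 called 9 of the list lower and limma-voom 8. From 4 to 7 were lower when 1 mouse was left out. S100a4 and S100a6, adjacent genes of calcium-binding proteins on chromosome 3 (90603771 to 90606045 and 90612882 to 90624181), are abundant in migrating monocytes. S100a4 had 396, 146, 164, 108 and 92.0 CPM in Trem1-deficient and 400, 962, 1521, 1010 and 1476 CPM in wild-type mice (-2.56 ± 0.42, adjusted p = 0.000801). S100a6 had 429, 350, 241, 92.2 and 82.0 CPM and 529, 1026, 1636, 1614 and 1480 CPM (-2.39 ± 0.39, adjusted p = 0.000801). For both, the groups were parted by a small gap between Trem1-deficient mouse 1 and wild-type mouse 1. Fn1, fibronectin, which hepatocytes make as well, had 123 to 826 and 1101 to 2267 CPM (-1.87 ± 0.40, adjusted p = 0.0104).

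Clec4e and Clec4d, neighbouring genes on chromosome 6, encode the lectins Mincle and MCL, which sense dead cells and mycobacterial lipids. Clec4e had 40.8, 30.1, 6.96, 8.16 and 8.20 CPM in Trem1-deficient and 39.9, 145, 86.8, 440 and 423 CPM in wild-type mice (-3.57 ± 0.69, adjusted p = 0.00352). Wild-type mouse 1 fell just inside the Trem1-deficient range. Clec4d had 5.27 to 25.3 and 45.9 to 366 CPM (-3.35 ± 0.74, adjusted p = 0.0108, not called without wild-type mouse 4). Of 14 genes tested in a list of myeloid C-type lectins these 2 were lower and 0 were higher. The list median was 0.89 (DESeq2 called 1 higher and 2 lower, limma-voom 2 and 2). The list does not hold the lectin genes Clec4f, higher as given above, and Clec1b, also higher (called in 3 of the 10 fits).

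Neutrophil genes were lower in 2 of 10 tested, G0s2 and Mmp8, with a list median of -2.15 (DESeq2 called 4 lower and limma-voom 1). G0s2, an inhibitor of triglyceride lipase, had 31.7, 12.9, 26.5, 11.4 and 3.52 CPM in Trem1-deficient and 49.2, 579, 429, 1218 and 102 CPM in wild-type mice (-4.77 ± 0.83, adjusted p = 0.00378). Mmp8, neutrophil collagenase, had 1.17 to 47.8 and 37.2 to 472 CPM (-2.84 ± 0.69, adjusted p = 0.0244, called in 6 of the 10 fits). The calprotectin genes S100a8 and S100a9 did not pass, with log2 fold changes of -1.55 and -2.02 (adjusted p = 0.36 and 0.24). Adam8, a protease that leukocytes carry at the surface, had 24.7, 12.9, 14.3, 4.08 and 9.96 CPM against 26.6, 243, 154, 550 and 250 CPM (-4.19 ± 0.75, adjusted p = 0.0015). Neutrophil and monocyte marker sums, given above, were on average lower in the same mice, and their part in these differences was not tested.

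Cytokine and receptor genes were mixed. Il1r2, the decoy receptor that captures interleukin-1, had 56.8, 42.0, 30.4, 52.2 and 34.0 CPM in Trem1-deficient and 110, 763, 569, 766 and 249 CPM in wild-type mice (-3.51 ± 0.46, adjusted p = 4.35e-05). Oil-treated mice had 10.5 ± 2.01 CPM. Il1f9, an inflammatory cytokine gene of the interleukin-1 family, had 0 to 2.34 and 6.92 to 147 CPM (-5.74 ± 1.43, adjusted p = 0.0269, called in 3 of the 10 fits). Osm, the cytokine oncostatin M, had 0 to 50.1 and 31.2 to 385 CPM (-3.23 ± 0.82, adjusted p = 0.0304, called in 4). The chemokine receptor genes Ccr1 and Cxcr4 were lower among 8 tested, Ccr1 with 0 to 21.3 and 16.6 to 234 CPM (-3.97 ± 0.94, adjusted p = 0.0192, called in 7) and Cxcr4 with 36.5 to 56.9 and 64.5 to 672 CPM (-2.40 ± 0.58, adjusted p = 0.0244, called in 5). Vegfa, the vascular growth factor, had 13.9 to 79.1 and 88.1 to 182 CPM (-2.35 ± 0.57, adjusted p = 0.025, called in 4).

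**Figure D4:**
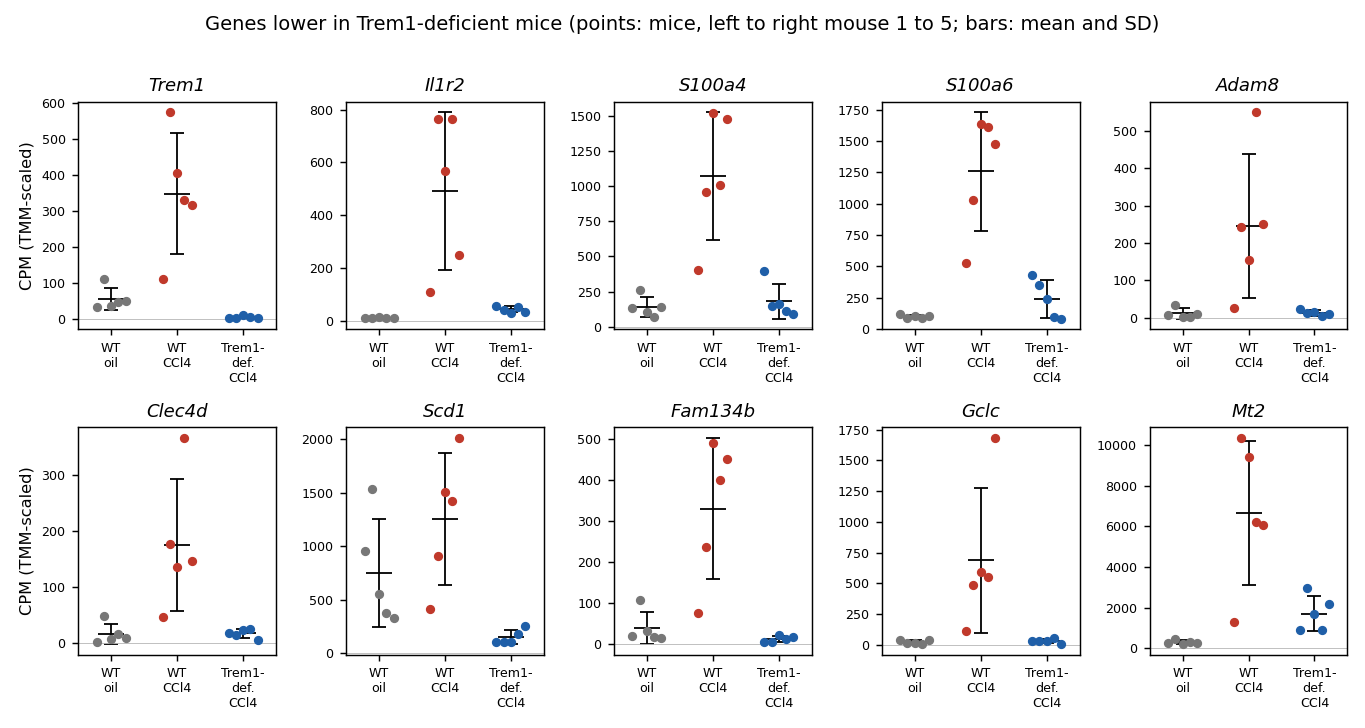
TMM-scaled CPM (vertical axes) of 10 genes lower in Trem1-deficient mice, by group (5 mice each); each point is a mouse, with mice 1 to 5 from the left, and bars give the mean and SD. Wild-type CCl4 mouse 1 is the lowest of its group in each panel, and only for Mt2 does it fall within the Trem1-deficient range (1310 CPM against 872 to 2938 CPM).

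Lower genes also included Scd1 and Fam134b. Scd1, stearoyl-CoA desaturase, had 108, 104, 104, 175 and 257 CPM in Trem1-deficient and 412, 907, 1512, 1426 and 2016 CPM in wild-type mice (-3.07 ± 0.45, adjusted p = 0.000473). Fam134b, an autophagy receptor of the endoplasmic reticulum, had 4.68, 4.74, 22.2, 11.4 and 15.2 CPM and 73.8, 236, 490, 401 and 452 CPM (-4.83 ± 0.66, adjusted p = 9.95e-05). The groups overlapped in neither gene. Hepatocyte marker sums were on average lower in the same mice, and their part was not tested.

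Lists of hepatocyte genes had negative medians, and the number of calls depended on the tool. Of 21 hepatocyte genes, 2 were lower (Cyp3a11 and Fabp1; median -2.01, and 0 to 6 called when 1 mouse was left out), against 10 in DESeq2 and 8 in limma-voom. Among apolipoprotein genes, 3 of 11 were lower (Apoa4, Apoc3 and Apom; median -2.07), 1 to 6 with 1 mouse left out, against 8 in DESeq2 and 9 in limma-voom. Among coagulation genes 1 of 19 was lower (Serpinc1, which encodes antithrombin; median -2.05), against 12 in DESeq2 and 12 in limma-voom. With 1 mouse left out this count was 0 to 7. Among acute-phase genes 2 of 18 were lower (Apcs and Cp; median -1.75), against 8 and 6. Among cytochrome P450 genes 4 of 26 were lower (Cyp2a12, Cyp2c37, Cyp2j5 and Cyp3a11; median -1.97), against 6 and 6. Of the 10 fits without 1 mouse, 7 called Cp, 6 Fabp1, 5 Serpinc1, 3 Cyp2j5 and 1 Apom, and Cyp3a11, Apoc3, Apcs and Cyp2a12 were called in 2 each. Apoa4 had 39 to 334 and 416 to 1203 CPM (-2.28 ± 0.48, adjusted p = 0.00934), against 2.61 ± 2.46 CPM in oil-treated mice. Alb, albumin, had 211 to 2629 and 1385 to 13051 CPM and did not pass (-3.03 ± 0.81, adjusted p = 0.0792). Cyp2c37 had 0 counts in all Trem1-deficient mice and 39.9 CPM on average in wild-type mice, at least 149-fold higher against a floor of 3 counts over the Trem1-deficient group. Wild-type mouse 5 alone had 188 CPM of it and 2 wild-type mice had 0, and the call held in 3 of the 10 fits, not in the fit without that mouse. Serpina6, the carrier of glucocorticoids, rested on the same mouse (367 CPM, against 22.9 CPM or less in the other 4; called in 4 of the 10 fits).

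Metallothioneins bind zinc and copper and are induced by metals, glucocorticoids and oxidative stress. Mt1 had 260, 629, 662, 319 and 727 CPM in Trem1-deficient and 398, 2239, 2255, 1410 and 2156 CPM in wild-type mice (-1.70 ± 0.36, adjusted p = 0.0076). Mt2 had 872, 2938, 1662, 877 and 2151 CPM and 1310, 10357, 9392, 6206 and 6082 CPM (-1.97 ± 0.44, adjusted p = 0.0262, called in 4 of the 10 fits). For both, wild-type mouse 1 lay inside the Trem1-deficient range and the other 4 wild-type mice above it. Oil-treated mice averaged 316 CPM of Mt1 and 284 CPM of Mt2. The other 6 tested genes of the list, Mtf1 and zinc transporters, did not pass. DESeq2 called 2 of the list lower, whereas limma-voom called 0. Within 1 index series neither Mt1 nor Mt2 passed (edgeR adjusted p = 0.159 and 0.0616). Mt1 and Mt2 are neighbours on chromosome 8, and their start regions are shown because they moved together. The runs cover the 250 bases before the RefSeq start (GRCm38.p6, plus strand, 5′ to 3′), at chr8:94178839-94179088 for Mt1 and chr8:94172368-94172617 for Mt2. Capitals mark TGCACNC or TGCGCNC on either strand, the core of the metal response element.
Mt1: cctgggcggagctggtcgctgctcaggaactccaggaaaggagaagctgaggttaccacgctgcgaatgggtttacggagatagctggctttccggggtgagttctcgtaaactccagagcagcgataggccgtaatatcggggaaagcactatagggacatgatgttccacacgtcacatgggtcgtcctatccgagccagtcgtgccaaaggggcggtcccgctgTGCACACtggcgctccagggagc
Mt2: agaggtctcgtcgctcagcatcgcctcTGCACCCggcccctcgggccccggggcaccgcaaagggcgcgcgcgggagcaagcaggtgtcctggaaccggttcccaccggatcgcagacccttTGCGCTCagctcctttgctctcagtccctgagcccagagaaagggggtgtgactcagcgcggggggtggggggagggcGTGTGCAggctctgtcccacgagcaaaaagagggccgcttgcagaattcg
Mt1 held 1 match and Mt2 held 3. Such letters were in 21.3% of 27025 promoters, 29.9% of 6979 promoters of tested genes, 26.8% of the 56 matched higher genes and 24.4% of the 82 matched lower genes, so both shares were below that of tested genes.

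Glutathione genes split. Gclc, the catalytic subunit of the first enzyme of glutathione synthesis, had 34.4, 31.8, 28.3, 58.0 and 4.69 CPM in Trem1-deficient and 110, 489, 592, 556 and 1685 CPM in wild-type mice (-4.45 ± 0.68, adjusted p = 0.00106). Slc7a11, which imports cystine for the same pathway, had 0.435 to 13.5 and 35.9 to 156 CPM (-4.11 ± 1.01, adjusted p = 0.0262, called in 4 of the 10 fits). Prdx6 was lower (-1.78 ± 0.47, adjusted p = 0.0395, called in 1) and Gpx1, above, was higher, so 4 of 21 antioxidant genes changed. Gclm, the partner subunit of Gclc, had a log2 fold change of -0.09. TGACNNNGC, the core of the antioxidant response element, was found on either strand in the same window of 10.1% of promoters, 11.9% of those of tested genes, 17.9% of the matched higher genes and 9 of the 82 matched lower genes.

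Among housekeeping sets, Psmd7 and Psmd11 of 41 proteasome genes were lower, with a list median of 0.32. Over all genes tested 1.28% were lower and 0.778% higher. Psmd7, a lid subunit, had 313, 309, 290, 303 and 176 CPM against 900, 632, 1493, 500 and 559 CPM (-1.55 ± 0.32, adjusted p = 0.00541). Psmd11 had up to 32.2 and 53.8 to 350 CPM (-2.93 ± 0.69, adjusted p = 0.0196, called in 5 of the 10 fits). Of 62 ribosomal protein genes 1 was lower, Rpl41, with 163 to 254 and 452 to 1333 CPM (-1.89 ± 0.32, adjusted p = 0.000833); the list median of -0.21 turned to 0.09 with scaling by library totals. Of 72 nuclear oxidative phosphorylation genes 0 passed in edgeR, 8 had an unadjusted p under 0.05, DESeq2 called 2 and limma-voom 2, and the median was 0.15.

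The signalling genes around Trem1 were tested as a list without Trem1 itself. Of 14 TREM family and DAP12 pathway genes 0 passed in edgeR, 4 had an unadjusted p under 0.05, DESeq2 called 0 and limma-voom 1, and the median was 0.17. Tyrobp had 526, 944, 583, 626 and 729 CPM in Trem1-deficient and 310, 477, 355, 549 and 470 CPM in wild-type mice, with overlap at 1 wild-type mouse (0.66 ± 0.25, adjusted p = 0.196). Among 20 NF-kB genes 0 passed (2 with p under 0.05, DESeq2 0, limma-voom 1; median 0.37). Among 19 Toll-like receptor genes 0 passed (2 with p under 0.05, 0 by DESeq2 and by limma-voom; median 0.25). Among 30 type I interferon genes 0 passed (6 with p under 0.05, DESeq2 2, limma-voom 1; median 0.13), and among 9 MHC class II genes 0 passed (4 with p under 0.05, DESeq2 1, limma-voom 1; median -0.33). H2-DMb1, part of the peptide-loading chaperone, had the smallest p of these, with a log2 fold change of 0.96 (adjusted p = 0.0512).

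The classic cytokines of macrophage activation did not pass the test. Il1b had 755 to 1638 CPM in Trem1-deficient and 1413 to 3339 CPM in wild-type mice (-0.73 ± 0.29, adjusted p = 0.214). Tnf had 18.6 to 90.6 and 1.38 to 129 CPM (-0.86 ± 0.78, adjusted p = 0.665), and Ccl2 1.17 to 83.9 and 0 to 27.3 CPM (1.29 ± 0.97, adjusted p = 0.577). Il10 had 15.7 to 126 and 0 to 55.2 CPM (1.97 ± 0.83, adjusted p = 0.244). Il6 was at 0 in wild-type mice 2 to 5 and in Trem1-deficient mouse 5, with 104 CPM in Trem1-deficient mouse 4 (adjusted p = 0.264). Itgam, which encodes CD11b, the antigen used to deplete the preparations, had 24.6 to 117 and 83.1 to 277 CPM (-1.31 ± 0.51, adjusted p = 0.203). 

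Sinusoidal endothelial genes had a median of 1.00 over 20 tested. None passed in edgeR; 7 had an unadjusted p under 0.05, DESeq2 called 0 and limma-voom 3. Their sum was 3378 to 16089 CPM in Trem1-deficient and 3334 to 6553 CPM in wild-type mice, with overlap. Endoplasmic reticulum stress genes had 0 calls among 19 (1 with p under 0.05, DESeq2 1, limma-voom 0). Lists of stellate, B and T or NK cell genes had 0 calls in edgeR among 8, 5 and 4 tested (2, 0 and 1 with p under 0.05, and 0 by both other tools).

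Because index series and sex transcripts split the Trem1-deficient group, the comparison was repeated with Trem1-deficient mice 3 to 5 against the 5 wild-type mice, all of 1 index series. In this fit with its own filter, 57 of 8729 genes passed (0.653%), and on the same 9001 genes as before 69 passed (0.767%), 60 of them among the 185. All 185 kept their direction and 182 had an unadjusted p under 0.05 there, in a fit that shares 8 of the 10 mice. The Kupffer list kept a median of 2.08 with 10 of 20 higher, and the monocyte list had a median of -2.51 with 6 of 16 lower. The hepatocyte list had a median of -1.36. With index series as a term in the fit of all mice, 77 genes passed, 72 of them among the 185. The oil mice are all of 1 series and the wild-type CCl4 mice all of the other. This contrast therefore again compares Trem1-deficient mice 3 to 5 with the wild-type mice and is not a separate check. Trem1-deficient mice 1 and 2 and the oil mice enter it only through the scaling and the shared spread. Within the Trem1-deficient group, index series and Xist changed together in mice 1 and 2 and cannot be told apart.

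**Figure D5:**
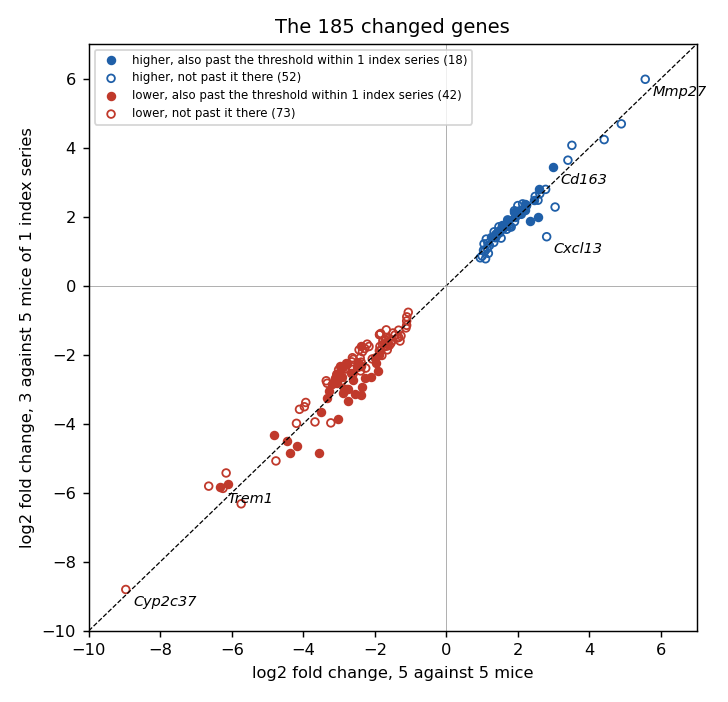
Log2 fold change of the 185 genes with 5 against 5 mice (horizontal axis) and with Trem1-deficient mice 3 to 5 against the 5 wild-type mice of the same index series (vertical axis); filled points passed the test in both, and the dashed line marks equality. All points lie in the 2 quadrants of equal sign, and Cxcl13 lies furthest below the line among the higher genes (2.80 against 1.42).

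Some named genes share exon positions with another annotated gene on the opposite strand, among them Lamp1, Ctsb, Hexa, Csf1r, Adam8, Fn1, Il1b, Apoa4 and Mt2. No label states whether counting used strand, and reads of such pairs cannot be told apart without it. Others, among them Ctsd, S100a4 and Nr1h3, share exon positions with an annotated gene on the same strand, which strand would not part. Cytochrome P450, Naip and guanylate-binding protein genes have close copies, and their counts are uncertain for the same kind of reason.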

How the data were processed

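Kupffer cell RNA of 15 mice was sequenced as 3' tags (Lexogen QuantSeq, per the labels' protocols), in 60 GEO entries of 4 lanes per mouse. The deposited table holds whole-number counts per gene made by the authors, 1 column per mouse; the submitters' processing notes name Trimmomatic, STAR 2.5.1a, Partek 6.6 and mm10, with no roles, and state neither annotation nor strand setting. The 4 tally rows that name no gene were dropped, leaving 24411 genes. No 2 libraries of the same group agreed within sampling noise. Genes were kept by edgeR's filterByExpr (9001) and tested with edgeR 4.0.16 (R 4.3.3): TMM scaling, robust quasi-likelihood fit of all 15 mice by group with 12 residual degrees of freedom, Benjamini-Hochberg adjusted p under 0.05. Standard errors are the size of the log2 fold change over the square root of F. P-values measure the spread between these mice, estimated jointly over all 15. Fitted group by group, the coefficient of variation between mice in edgeR was unequal. It was 1.16 in wild-type CCl4, 0.654 in Trem1-deficient and 0.809 in oil mice. DESeq2 1.42.0 and limma 3.58.1 (voom) were alternatives.

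Named genes were Trem1, the 12 largest changes in each direction among genes averaging at least 10 CPM in 1 genotype, the 6 smallest p in each direction, up to 4 members by p of each of 63 lists (11 of markers, 52 of functions) with a changed member, 1 of other lists described, and 16 genes whatever they showed. Other genes named here, such as C1qa, C3, Spic and Gclm, complete a family or list and were chosen with their values known; some genes that the rule names are not reported here. The genes compared and the lists were chosen with earlier results of these data known. Gene positions came from GENCODE mouse release 21 (GRCm38, the build of mm10), with 96.6% of tested names matched, and promoters from RefSeq (GRCm38.p6).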

Additional observations from a re-analysis of the deposited data

Results flagged for a closer look

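Of 180 sets of 5 mice checked, 18 had a highest or lowest mouse far from the others by Dixon's criterion. Chance meets it in about 1 of 20 sets if values are normally distributed. The check used CPM without a log, and whether that rate holds for such values was not tested. In wild-type CCl4 mice, mouse 1 stood above the other 4 for Gm14023 (24.6 CPM), Pla2g15 (93.1 CPM), Cd5l (7763 CPM), Lpl (562 CPM) and Il6 (16.6 CPM). Wild-type mouse 5 stood above the others for Cyp2c37 (188 CPM), Serpina6 (367 CPM), Cxcr4 (672 CPM) and Cyp2a12 (623 CPM), and below them for Lamp1 (289 CPM). Among Trem1-deficient mice, mouse 4 was high for Sgms2 (17.1 CPM), Cyp2j5 (49.0 CPM) and Il6 (104 CPM) and low for Myh9 (251 CPM). Trem1-deficient mouse 1 was high for S100a4 (396 CPM), mouse 3 for Vegfa (79.1 CPM) and mouse 5 for Il18 (251 CPM), and mouse 5 was low for Psmd7 (176 CPM). Among the wild-type CCl4 libraries, mouse 1 is also the one whose profile lay nearest to the Trem1-deficient group. Of the 10 fits without 1 mouse, 1 called Gm14023, 3 called Sgms2 and 5 called Myh9.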

How the results depend on the processing

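All 185 changed genes kept their direction under each of the 24 alternatives in which they were tested, but the number of calls moved. Scaling by library totals gave 306 (211 higher, 95 lower), upper-quartile factors 158 (86 and 72), no filter 563 (161 and 402), DESeq2 608 (192 and 416) and limma-voom 593 (301 and 292). A fit of only the 10 CCl4 mice gave 134 (35 and 99). Within 1 index series 57 passed (17 and 40), with index series as a term 77 (37 and 40), and in 2 fits added after seeing the data 69 (18 and 51, genes of the full test) and 54 (27 and 27, oil mice kept). Leaving out 1 mouse gave 87 to 508 changed, 35 to 296 higher and 52 to 212 lower, with 508 without wild-type mouse 1 and 87 without Trem1-deficient mouse 2. Mouse number as a replicate block gave 158 (72 and 86). Same-numbered mice correlated at -0.0293 to 0.0386, and 2 of 5 numbers correlated best with themselves. This gave no sign that the numbers pair mice, though a check on so few mice cannot exclude it. Zbtb46, which did not pass (log2 fold change -0.35), turned to 1.29 in limma-voom, 0.17 with the replicate block and 2.24 without wild-type mouse 3, and was -0.67 to 2.24 with 1 mouse left out; the cause was not tested. Depth limits scarce genes, since 3 counts equal up to 3.69 CPM.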
